A study of Mus musculus and Macaca mulatta with 39 samples.

Results

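In mouse embryonic cortex, 1603 autosomal loci carried the histone mark H3K4me2 in both replicates at embryonic day 11.5 (E11.5) and in none of the 4 replicates at E17.5. They are called lost loci here, a name for their absence from the E17.5 lists. They were found by merging overlapping or touching H3K4me2 regions of all 8 mouse lists into 91955 loci, 88892 of them on autosomes. Of the 30352 autosomal loci called in both E11.5 lists, the lost loci were 5.28%. A further 24878 were called in all 4 E17.5 lists (kept loci) and 3871 in 1 to 3 of them (partly kept loci). The lost loci were thus chosen on the H3K4me2 calls at E11.5 and E17.5, so that these calls describe the set and test nothing. The H3K27ac lists had no part in the choice. The E14.5 H3K4me2 lists entered only the merging, which sets where a locus begins and ends, and no E14.5 call was required.

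H3K4me2 denotes lysine 4 of histone H3 carrying a pair of methyl groups, and it sits at promoters and enhancers that are active or held ready for use. H3K27ac, an acetylation written by the coactivators p300 and CBP, marks those in use. When mouse embryonic stem cells differentiate and switch enhancers off, H3K4 methylation there can be removed by the demethylase LSD1, which acts together with histone deacetylases. At E11.5 the cortex is made mostly of dividing progenitors at the start of neurogenesis, at E14.5 neurons are being produced, and at E17.5 neurogenesis is near its end and the layers hold many neurons.

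The study mapped both marks by chromatin immunoprecipitation and sequencing in cortex of C57BL6J mice. The tissues were cortex at E17.5, dissected into frontal and occipital parts, at E14.5 and at E11.5, each with 2 biological replicates and without any genetic change or treatment in the labels. Rhesus lists of the same series were not used here. For each replicate and mark the authors deposited the positions of called regions, with no score or read count, so that the read depth is unknown and a value below is the length in bp of a locus that the regions of a list cover. The tissue is a mixture of cells, and a mark carried by fewer cells cannot be told apart from a weaker mark in each cell. The files give mm9 positions, for which no gene annotation or genome sequence was at hand, so loci are named by position and no gene or sequence is given for them.

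The lists differed in length within and between stages. H3K4me2 lists covered 69.3 and 111.7 Mb at E11.5, 65.3 and 95.2 Mb at E14.5, 104.8 and 90.0 Mb in E17.5 frontal cortex and 112.8 and 162.2 Mb in E17.5 occipital cortex (replicates 1 and 2). H3K27ac lists covered 85.3 and 63.1 Mb, 144.5 and 107.1 Mb, 169.3 and 160.3 Mb, and 161.5 and 129.3 Mb in the same order. All 4 E17.5 H3K27ac lists were longer than both E11.5 ones. The E17.5 H3K4me2 lists were longer than E11.5 replicate 1, and the occipital ones also exceeded E11.5 replicate 2.

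A locus that is called in one tissue and missed in another was common even between tissues of one age. Of 48679 loci called in both occipital lists at E17.5, 16.3% were in neither frontal list, while of 37576 loci in both frontal lists 1.64% were in neither occipital list. Of the 30352 E11.5 loci, 10.7% were in neither frontal list, 6.16% in neither occipital list and 7.36% in neither E14.5 list. The share of lost loci, 5.28%, rests on absence from 4 lists and the other shares on absence from 2, so the E11.5 values to set beside the same-age pair are 10.7% and 6.16%, and both lie between its 16.3% and 1.64%. What part of the loss list length accounts for was not tested. Without the long occipital replicate 2 list the rule took 2625 loci, and without the short E11.5 replicate 1 list, which leaves the long replicate 2 to define E11.5 alone, it took 8711. With an equal number of the widest regions in every list it took 2740.

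Lost loci were short. Their merged width had a median of 1325 bp with quartiles of 1075 and 1700 bp, against a median of 3300 bp with quartiles of 2200 and 4950 bp at kept loci. By the rule this width takes in E17.5 regions at kept loci and none at lost loci, which sets part of the gap. E17.5 regions can also join separate E11.5 regions into 1 kept locus and so raise its E11.5 length. The widest lost locus spanned 9125 bp, and 51 of them exceeded 3000 bp. Within E11.5, replicate 1 covered a median of 750 bp of a lost locus and replicate 2 covered 1300 bp, and replicate 2 was the wider at 1487 of the 1603. The E11.5 medians were 875 and 1475 bp at partly kept loci and 2075 and 2700 bp at kept loci (replicates 1 and 2). At kept loci replicate 2 was also the wider at 24306 of 24878. At 286 lost loci both E11.5 lists covered at least 1000 bp, and at 26 both covered at least 2000 bp. When a call needed 1000 bp in every list used, 752 loci met the rule. That setting also counts a locus with less than 1000 bp at E17.5 as absent there, so these are not a subset of the lost loci.

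The share of E11.5 loci that was lost was smaller at each step up in E11.5 length. It was 32.3% of 606 loci with a mean E11.5 length of 500 to 750 bp, 22.8% of 2352 at 750 to 1000 bp and 12.1% of 3449 at 1000 to 1250 bp. Further up it was 7.59% at 1250 to 1500 bp, 2.85% at 1500 to 2000 bp and 0.881% at 2000 to 3000 bp. At 3000 bp or more it was 0.104%, that is 9 of 8636 loci. The regions of the lists are at least 500 bp long with 3 exceptions, so the shortest class stands just above the least length the lists hold.

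**Figure D1:**
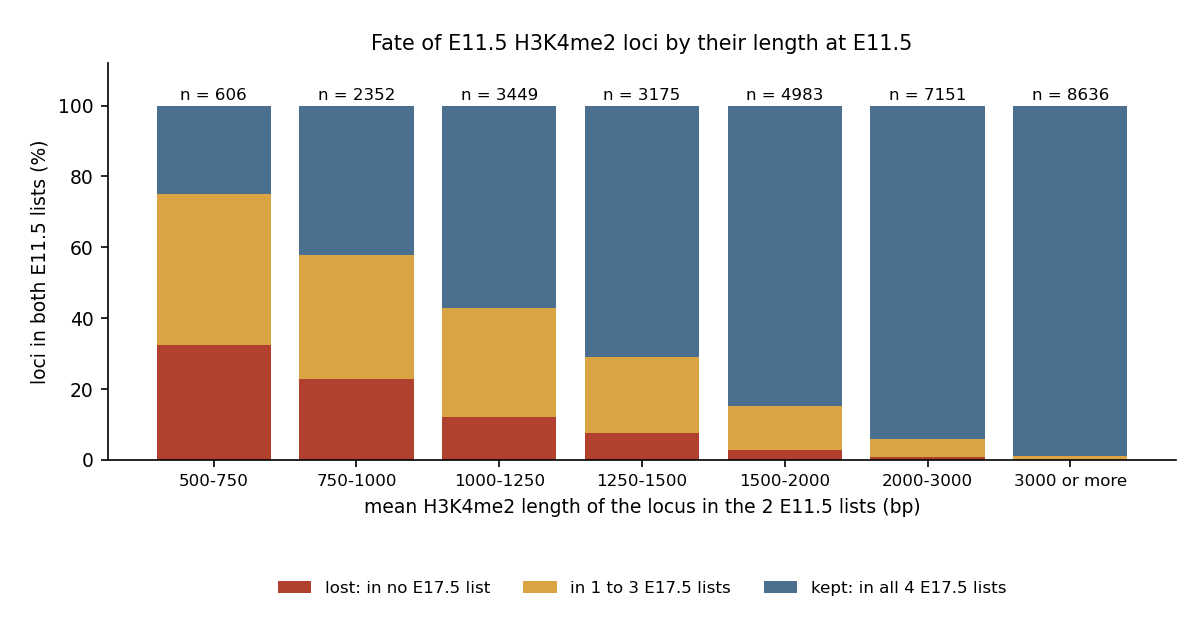
Share in percent of the H3K4me2 loci called in both E11.5 lists that were in no E17.5 list (lost), in 1 to 3 or in all 4 (kept), by mean E11.5 length in bp, with the number of loci above each bar. The lost share is 32.3% in the shortest class and 0.104% in the longest.

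The edge of the rule shows how close the classes lie. The lost locus with the least E11.5 signal, chr4:12348576-12349175, had 500 bp of H3K4me2 in both E11.5 lists and 0 in the other lists, and chr6:55307451-55308275 had 500 and 500 bp at E11.5, 0 and 775 bp at E14.5 and 0 at E17.5. Just outside the rule, chr1:36060101-36061250 had 650 and 1150 bp at E11.5, 925 bp in E14.5 replicate 2 and 500 bp in occipital replicate 2 alone at E17.5. Such loci are told apart by 1 region of the least length in 1 list.

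Most lost loci were already missing from both H3K4me2 lists at E14.5. These were 1105 of the 1603 (68.9%), while 445 (27.8%) were called in 1 E14.5 list and 53 (3.31%) in both. Of kept loci 93.0% were in both E14.5 lists, 6.54% in 1 and 0.45% in neither, and of partly kept loci 24.3%, 49.5% and 26.2%. Of the 445 in 1 list, 423 were in the longer replicate 2 list and 22 in the shorter replicate 1 list. With replicate 2 left out 95.3% of the lost loci were absent at E14.5, and with replicate 1 left out 70.3% were. The split into 0 and 1 list thus follows the replicate, and the timing of these 445 is not settled by the lists.

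Loci still called at E14.5 were wider. The median width was 1225 bp for those in 0 E14.5 lists, 1550 bp for those in 1 list and 1750 bp for those in both. This merged width takes in any E14.5 region. The E11.5 lists alone gave medians of 725, 850 and 925 bp in replicate 1, in the same order. In replicate 2 they were 1200, 1525 and 1700 bp. Where they were still called, they were shorter at E14.5 than at E11.5. The 53 loci in both E14.5 lists had medians of 625 and 950 bp there, against 925 and 1700 bp in the E11.5 lists of the same number. The rule required the E11.5 calls and did not use the E14.5 lengths. Partly kept loci called at E14.5 had medians of 750 and 1025 bp there, against 875 and 1475 bp over all partly kept loci at E11.5. Kept loci had 2075 and 2425 bp where called at E14.5, and 2075 and 2700 bp at E11.5. Shorter E14.5 medians were thus also found at partly kept loci, and at kept loci in replicate 2 but not in replicate 1. For partly kept and kept loci the E14.5 medians leave out loci not called there, while the E11.5 medians cover all of them. Each E14.5 H3K4me2 list was also shorter in total than the E11.5 list of the same number.

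The widest locus in this class was chr19:44566876-44576000, which is also the widest of all lost loci. Its H3K4me2 length was 8150 and 9125 bp at E11.5, 2050 and 2950 bp at E14.5, and 0 at E17.5 by the rule. The same class held chr2:18231726-18240200, with 2000 and 3725 bp at E14.5 and 6525 and 8475 bp at E11.5. It also held chr12:110790426-110794100, with 500 and 1400 bp at E14.5 and 3000 and 3675 bp at E11.5. At the fourth, chr2:4379326-4384350, E14.5 had 900 and 1500 bp, and the replicates at E11.5 differed more, with 1200 and 5025 bp. In 3 of these 4 both E14.5 values lay below both E11.5 values, and at chr2:4379326-4384350 the ranges of the stages overlapped.

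The 4 loci with most H3K4me2 at E11.5 in the class of 1 E14.5 list were led by chr9:75622426-75630200, which had 775 bp in E14.5 replicate 2 and 5625 and 7775 bp at E11.5. It was followed by chr5:106813301-106816625, with 2125 bp in E14.5 replicate 2 and 2950 and 3325 bp at E11.5. At chr11:87935376-87940475 E14.5 replicate 2 had 525 bp, and the E11.5 replicates differed widely, with 1075 and 5100 bp. The last of the 4, chr4:89343876-89347225, had 550 bp in E14.5 replicate 2 and 2575 and 3350 bp at E11.5. In all 4, E14.5 replicate 1 was at 0.

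Among loci in no E14.5 list, the longest at E11.5 was chr8:111253226-111257850, with 4250 and 3825 bp. Next were chr9:114456376-114459725 and chr2:28888001-28891050, with 2800 bp in replicate 1 at each, and 3350 and 3050 bp in replicate 2. The fourth, chr2:93456376-93460450, had 1600 and 4075 bp. The 4 longest of this class were thus 3050 to 4625 bp wide, below the 9125 and 8475 bp of the widest loci still called at E14.5.

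H3K27ac was less common at lost loci than at kept ones already at E11.5, and the gap grew with age. It overlapped 60.9% and 34.8% of lost loci in the E11.5 lists, 49.2% and 30.2% at E14.5, 34.6% and 30.6% in frontal cortex and 28.0% and 23.6% in occipital cortex at E17.5 (replicates 1 and 2). Kept loci had it at 88.7% and 81.8%, 94.9% and 88.6%, 94.2% and 91.7%, and 93.1% and 93.0% in the same lists. At lost loci the mean was 29.2 ± 4.61% at E17.5 (SD, n = 4 lists) and 47.9 ± 18.5% at E11.5 (SD, n = 2 lists). At kept loci it was 93.0 ± 1.02% at E17.5 and 85.3 ± 4.87% at E11.5. The 4 E17.5 values at lost loci lay below both E11.5 values, but by as little as 34.6% in frontal replicate 1 against 34.8% in E11.5 replicate 2, and the E11.5 replicates differed from each other by more than the stage means did. These smaller shares came with longer H3K27ac lists.

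**Figure D2:**
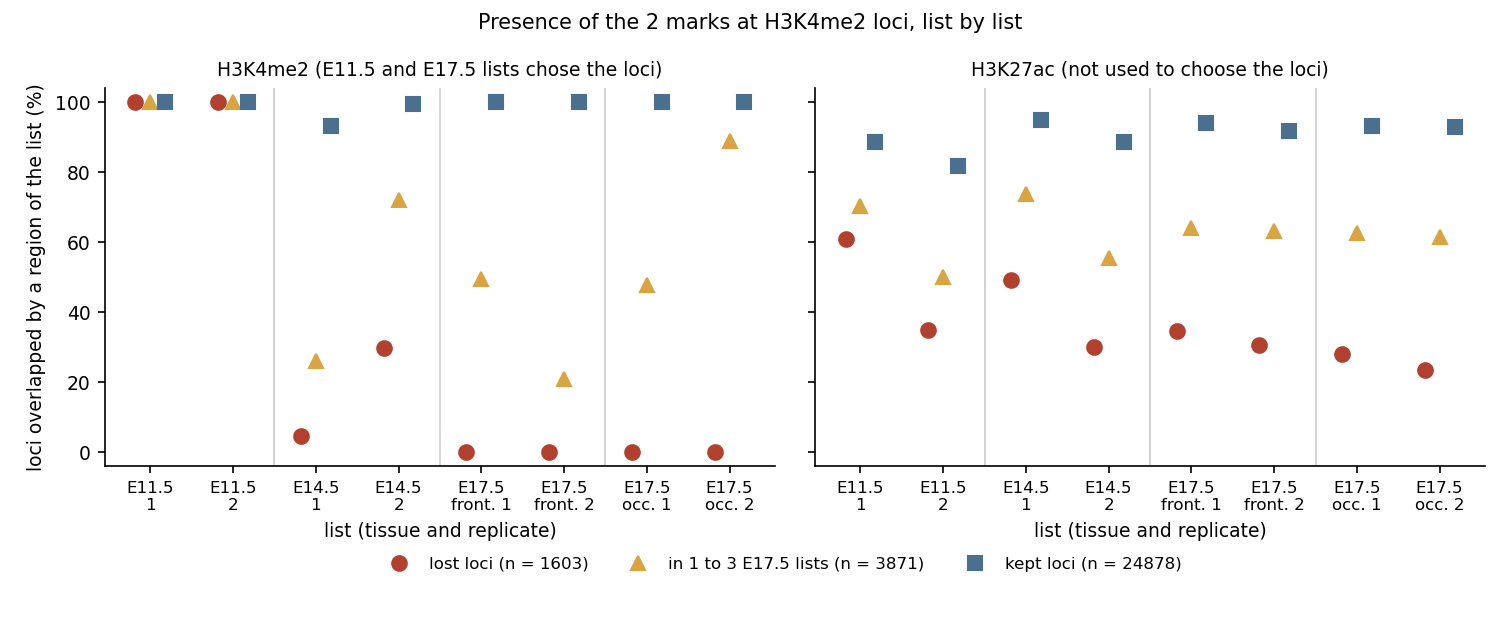
Percent of lost, partly kept and kept loci overlapped by at least 1 bp of a region, for each H3K4me2 list (left) and H3K27ac list (right). Lost loci with H3K27ac range between 23.6% and 34.6% in the 4 E17.5 lists and are 60.9% and 34.8% at E11.5, while kept loci stay between 81.8% and 94.9%.

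Stated by locus, 183 lost loci (11.4%) had H3K27ac in all 4 E17.5 lists, 620 in some and 800 (49.9%) in no E17.5 list. At E11.5, 505 (31.5%) had it in both lists, 525 in 1 and 573 (35.8%) in neither. Of kept loci 86.6% had it in every E17.5 list, and 2.37% lacked it throughout E17.5. The share in all 4 E17.5 lists was 17.2% without occipital replicate 2, and the share in both E11.5 lists rested on replicate 2, without which it was 60.9%. In all 8 lists 107 lost loci were acetylated, and 377 (23.5%) were in no H3K27ac list, against 1.34% of kept loci. With an equal number of the widest H3K27ac regions per list, 4.24% of lost loci had the mark in all 4 E17.5 lists, against 76.2% of kept loci.

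Short lost and kept loci of the same E11.5 length lay further apart in H3K27ac at E17.5 than at E11.5. Among loci of 1000 to 1250 bp, 11.8% of 416 lost and 65.0% of 1975 kept loci were acetylated in all 4 E17.5 lists. In that class 36.5% of lost and 40.9% of kept loci were acetylated in both E11.5 lists. Among loci of 750 to 1000 bp the values were 9.89% of 536 lost and 63.6% of 995 kept loci at E17.5, and 23.7% of lost and 32.9% of kept loci at E11.5. Longer loci differed at E11.5 as well. At 2000 to 3000 bp, 11.1% of 63 lost and 92.5% of 6735 kept loci were acetylated in all 4 E17.5 lists, and 39.7% of lost and 89.9% of kept loci in both E11.5 lists. At E17.5 partly kept loci lay between lost and kept ones in these classes, at 35.0%, 39.3% and 53.8% from short to long. Their shares in both E11.5 lists were 31.3%, 43.5% and 63.7%. H3K27ac was scored over the merged locus, which takes in E17.5 H3K4me2 regions at kept and partly kept loci and none at lost loci. Loci of like E11.5 length were thus not matched in merged width, and the part of width in these shares was not tested. The length classes were chosen after values had been seen and the comparison is a description.

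**Figure D3:**
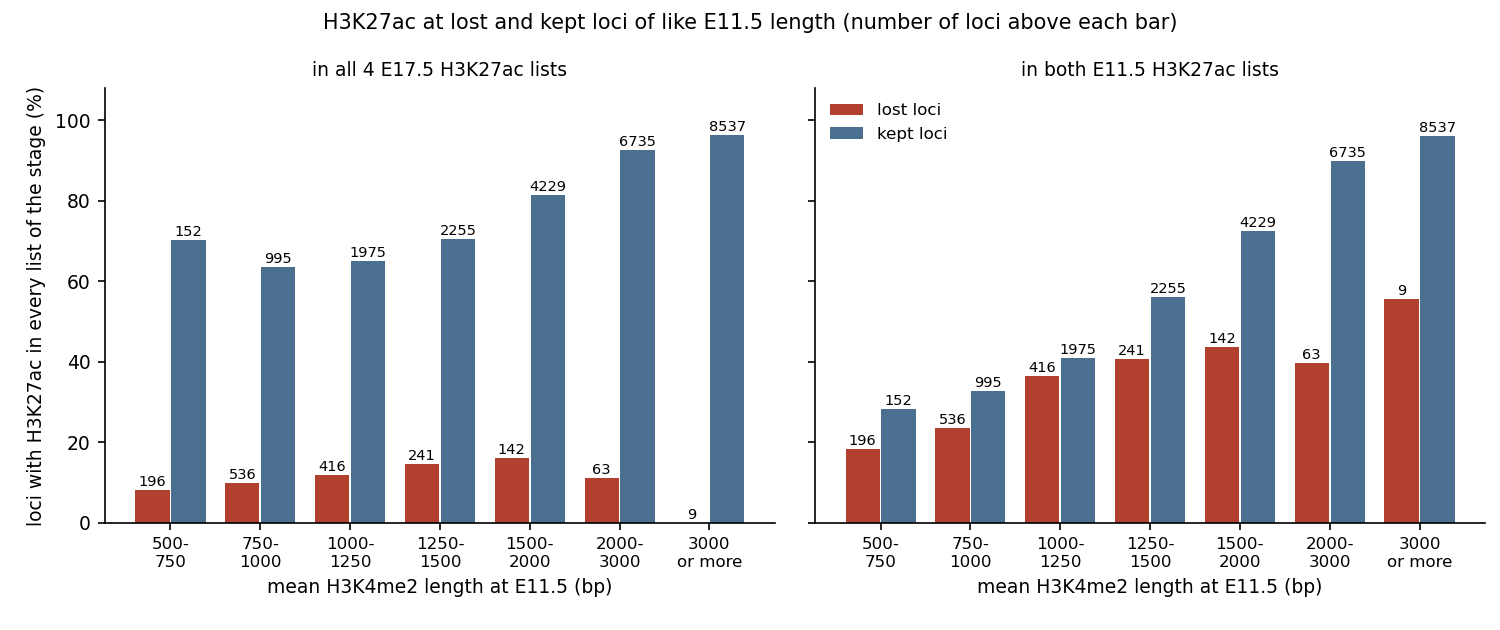
Percent of lost and kept loci with H3K27ac in all 4 E17.5 lists (left) and in both E11.5 lists (right), by mean E11.5 H3K4me2 length in bp, with the number of loci above each bar. Between 1000 and 1250 bp the bars stand at 11.8% of lost and 65.0% of kept loci at E17.5, and at 36.5% of lost and 40.9% of kept loci at E11.5.

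The state of H3K27ac at E17.5 differed with its state at E11.5. Of the 505 lost loci acetylated in both E11.5 lists, 118 (23.4%) had H3K27ac in no E17.5 list and 125 (24.8%) in all 4. Of the 573 without it at E11.5, 429 (74.9%) had none at E17.5 and 10 (1.75%) had it in all 4. Kept loci acetylated in both E11.5 lists had it in all 4 E17.5 lists in 94.5% of 19764 cases, and kept loci without it at E11.5 in 38.4% of 2204. Lost loci without acetylation at E11.5 thus seldom had it in every later list.

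H3K27ac was also tested as a covered length, log2 of the bp plus 200, in limma over the 53001 autosomal loci with both marks in at least 2 lists each. An adjusted p below 0.05 (Benjamini-Hochberg) is called a change. Between E17.5 and E11.5, 126 of the 978 lost loci tested fell (12.9%), against a background of 0.97% of all loci tested. A further 10 rose (1.02%), against a background of 22.8%. Among kept loci 0.751% fell and 14.9% rose, and among partly kept loci 3.45% fell and 6.28% rose. The median change was -0.74 at lost loci, 0.05 at partly kept loci, 0.26 at kept loci and 0.75 over all loci. Relative to all loci the medians were -1.49 at lost, -0.70 at partly kept and -0.49 at kept loci. All loci here, and so the background, include 24555 that were not called in both E11.5 H3K4me2 lists. Of these 33.7% rose and 0.387% fell, with a median change of 1.71. The other 625 lost loci had H3K27ac in at most 1 list and were not tested. A locus acetylated only in both E11.5 lists passed the filter through those lists, and one acetylated only later passed through the later lists.

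The number of lost loci that fell rested on the E11.5 pair. Leaving out either of these lists leaves 1 list at E11.5, so only median changes are given for those fits. Without E11.5 replicate 1 the median was -0.03 at lost loci and 0.97 over all loci. Without E11.5 replicate 2 it was -1.32 at lost loci and 0.48 over all loci. The median of lost loci thus lay below that of all loci whichever E11.5 list was left out. Of the 126, 58 were acetylated in both E11.5 lists and nowhere else, 94 were in no E17.5 list and 32 were still in some. With covered length scaled to the list total, which lowers the later, longer lists, 38.6% of the calls over all loci were higher, against 95.9% as tested. Then 341 of 978 lost loci fell (34.9%) and 10 rose, while 28.1% of all loci fell, so that the shares called lay closer together. The median of lost loci was -1.34 relative to all loci under that scaling, against -1.49 as tested, and it was -0.74 with no filter on H3K27ac and -0.70 with 1000 bp added in place of 200. With every H3K27ac list cut to the same number of regions, the widest, 218 of 774 lost loci fell (28.2%), while 2.38% of all loci did. With loci in at least 3 H3K27ac lists 70 of 755 fell (9.27%), while 0.79% of all loci did. Where the lists of each tissue were all covered or all at 0, the spread is borrowed from other loci, and on shuffled values such loci were called too often, so these adjusted p-values rank loci better than they measure error.

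The largest fall among the lost loci called was at chr19:44566876-44576000. Its H3K27ac length was 6825 and 3225 bp at E11.5, 1375 and 2025 bp at E14.5, and 0 in all 4 E17.5 lists. The change between E17.5 and E11.5 was -4.62 ± 0.36 (log2, SE, limma adjusted p = 0.000916), and the values of these stages did not overlap. Both marks were shorter at E14.5 than at E11.5 in every list and in no E17.5 list, although the step between E14.5 and E11.5 did not pass the test for H3K27ac (adjusted p = 0.121).

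At chr17:23819276-23822075 and chr12:85882001-85883750 acetylation was as long at E14.5 as at E11.5 in at least 1 list and then absent. The first had 1825 and 2075 bp at E11.5, 2025 and 875 bp at E14.5, and 0 in all 4 E17.5 lists, a change of -3.42 ± 0.37 between E17.5 and E11.5 (log2, SE, limma adjusted p = 0.00231). The second was covered over its whole 1750 bp in all E11.5 and E14.5 lists and in no E17.5 list, a change of -3.28 ± 0.23 (log2, SE, limma adjusted p = 0.00066). Both also fell between E17.5 and E14.5, with adjusted p of 0.0214 and 0.0175 in the same limma fit, but both calls were lost with length scaled to the list total (adjusted p = 0.0544 at both). The call at the first was also lost without either E11.5 list and without frontal replicate 2. H3K4me2 at the first was 1175 and 1800 bp at E14.5, and at the second 700 bp in replicate 1 and 0 in replicate 2.

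The other 3 of the 6 largest falls had no H3K4me2 at E14.5. At chr9:65957701-65959325 H3K27ac was 1625 bp in both E11.5 lists, 850 and 625 bp at E14.5, and 0 at E17.5, a change of -3.19 ± 0.26 (log2, SE, limma adjusted p = 0.00104). At chr5:26532376-26534300 it was 1900 and 1925 bp at E11.5, 0 and 725 bp at E14.5, and 0 at E17.5 (adjusted p = 0.0171). At chr5:53508926-53511875 it was 2950 and 1875 bp at E11.5, 2000 and 525 bp at E14.5, and at E17.5 500 bp in frontal replicate 1 and 0 in the other lists (adjusted p = 0.0273). The E17.5 values lay below the E11.5 values at all 3, but the calls at the last 2 rested on single lists. The call at chr5:26532376-26534300 was lost without any 1 of the E11.5 or E17.5 lists, with a change of -3.41 to -3.39. The call at chr5:53508926-53511875 was lost without either E11.5 or either occipital list, with a change of -3.53 to -2.92.

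A few lost loci went the other way and gained acetylation as H3K4me2 disappeared from the lists. Of the 10 that rose, 9 had no H3K27ac at E11.5 and 8 had it in all 4 E17.5 lists. Those 9 passed the filter only through later lists and could not fall between E17.5 and E11.5. At chr3:141559776-141562275 it covered 0 at E11.5, 2500 and 1375 bp at E14.5, and 2500, 2500, 2500 and 2075 bp at E17.5. The rise was 3.69 ± 0.24 (log2, SE, limma adjusted p = 0.000546), with no overlap between the E17.5 and E11.5 values. At chr8:110343501-110345925 the values were 0 at E11.5, 2275 and 525 bp at E14.5, and 2425, 2425, 2425 and 2250 bp at E17.5 (adjusted p = 0.00474). H3K4me2 at these loci had been 550 and 2500 bp, and 1800 and 2425 bp, at E11.5.

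The other 4 of the 6 largest rises were at shorter loci with 0 at E11.5. At chr6:49722501-49723800 H3K27ac was 700 to 1300 bp in the E17.5 lists and 1075 bp in both E14.5 lists. At chr3:86643601-86644375 it was 775 bp in every E17.5 list, which is the whole locus, and 675 and 725 bp at E14.5. At chr12:106821576-106822775 it was 499 to 1200 bp at E17.5 and 875 and 625 bp at E14.5. These 3 had thus reached their E17.5 range or come near it by E14.5. At chr11:25506601-25507625 it was 725 to 1025 bp at E17.5 and 0 at E14.5, and this locus also rose between E17.5 and E14.5 (limma adjusted p = 0.0175), a call that was lost with length scaled to the list total (adjusted p = 0.0544). With H3K27ac lists cut to the same number of regions, the rises between E17.5 and E11.5 at chr8:110343501-110345925, chr6:49722501-49723800 and chr12:106821576-106822775 no longer passed the test.

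**Figure D4:**
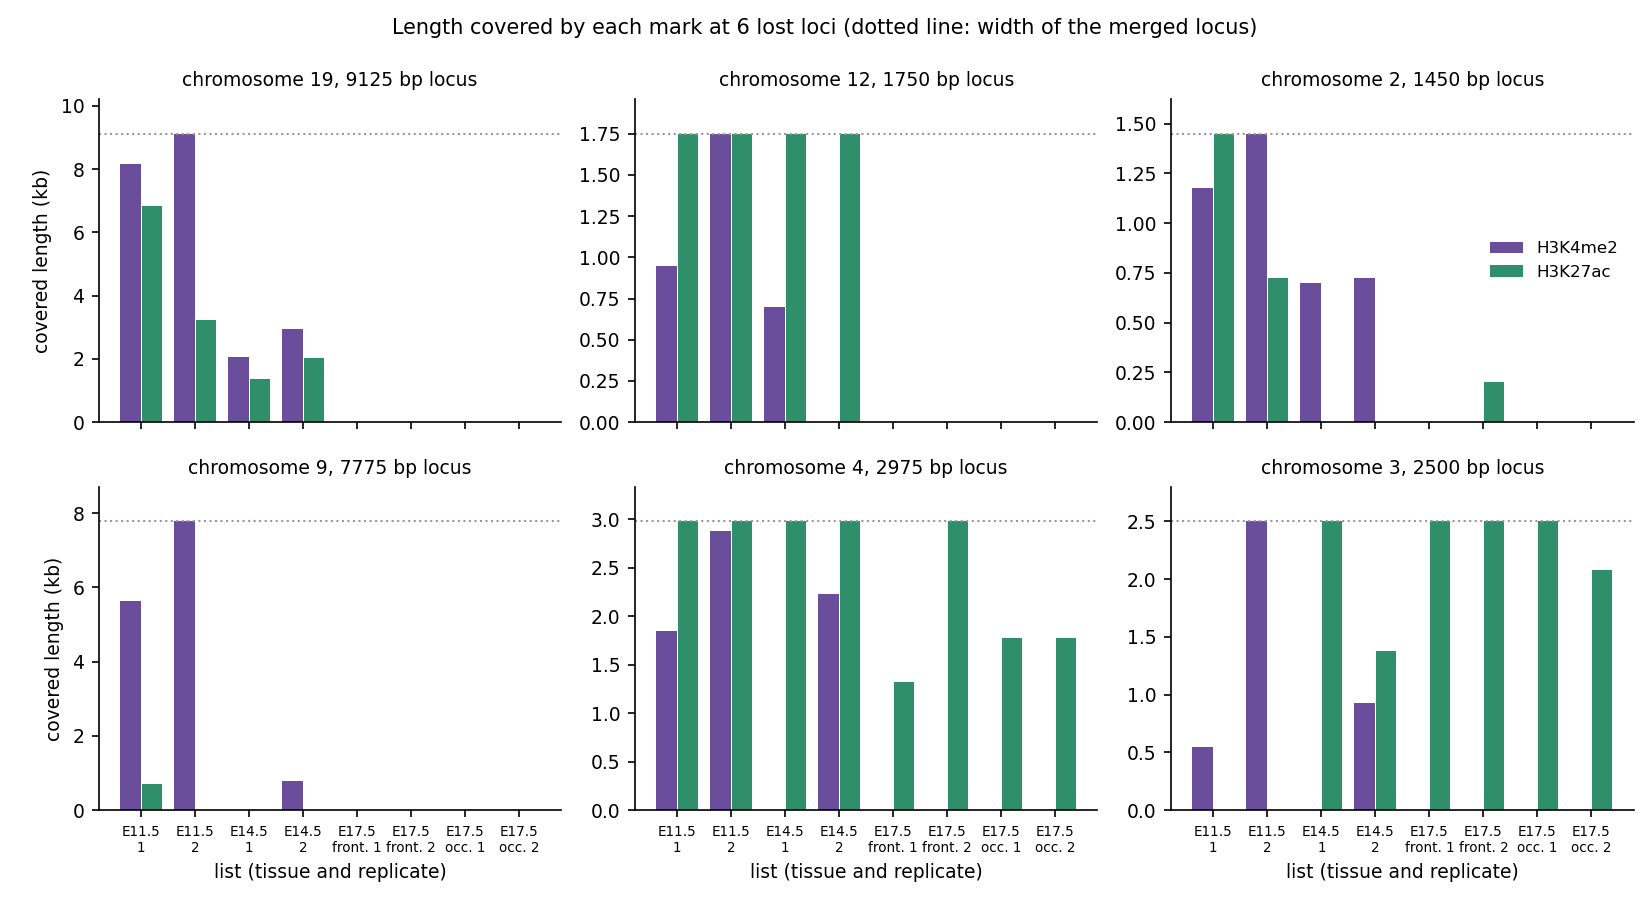
Length in kb covered by H3K4me2 (violet) and H3K27ac (green) in each of the 8 lists of a mark at 6 lost loci, with the width of the merged locus as a dotted line. At the chromosome 19 locus both marks are shorter at E14.5 and at 0 at E17.5, and at the chromosome 3 locus H3K27ac is at 0 at E11.5 and covers 2075 to 2500 bp at E17.5.

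The single steps gave fewer calls at lost loci, and the falls of the first step rested on the filter and on the E11.5 pair. Between E14.5 and E11.5, 62 of 978 fell (6.34%, background 0.362%) and 12 rose (1.23%, background 11.8%), with a median change of -0.06 at lost loci and 0.38 over all loci. Of the calls over all loci 97.0% were higher at that step, and 77.7% with length scaled to the list total. Between E17.5 and E14.5, 27 fell (2.76%, background 0.44%) and 3 rose (0.307%, background 2.38%), with medians of -0.46 and 0.05. The comparisons share the E14.5 lists, and their difference was not tested. Of the 62, 57 had H3K27ac in both E11.5 lists and in no other list, so that they passed the filter only through the lists where they were high and could only fall. Of the 12 that rose, 3 had it in both E14.5 lists alone and could only rise. With loci in at least 3 H3K27ac lists 5 of 755 fell (0.66%), against 0.147% of all loci tested. There 9 lost loci rose, against 6207 of all 49515 loci. Without E11.5 replicate 1 the median change was 0.14 at lost loci and 0.61 over all loci. Without E11.5 replicate 2 it was -0.54 at lost loci and 0.18 over all loci. The sign at lost loci thus depended on the E11.5 list left out, and a balance toward falls in the first step is not shown. Of the 27 that fell in the second step, 24 had H3K27ac in at least 3 lists. In that step limma called 0 loci with length scaled to the list total, where 8532 had an unadjusted p below 0.05, and with the widest regions only 61.0% of calls were higher, against 84.4% as tested. In the second step 41 lost loci fell without frontal replicate 1, and 41 without occipital replicate 1.

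The order in which the marks left was read at E14.5 for the 505 lost loci acetylated in both E11.5 lists. At 126 of them H3K4me2 was in neither E14.5 list while H3K27ac was in both. This state is called H3K4me2 lost first here, whether or not H3K27ac was lost later. At 2 the reverse held, with H3K27ac in neither E14.5 list and H3K4me2 in both. Both marks were absent at 73 and both present at 28, and at 276 the replicates of at least 1 mark differed. Of the 126, 50 still had H3K27ac in every E17.5 list and 12 had lost it there, while of the 73 without either mark at E14.5, 45 had no H3K27ac at E17.5.

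**Figure D5:**
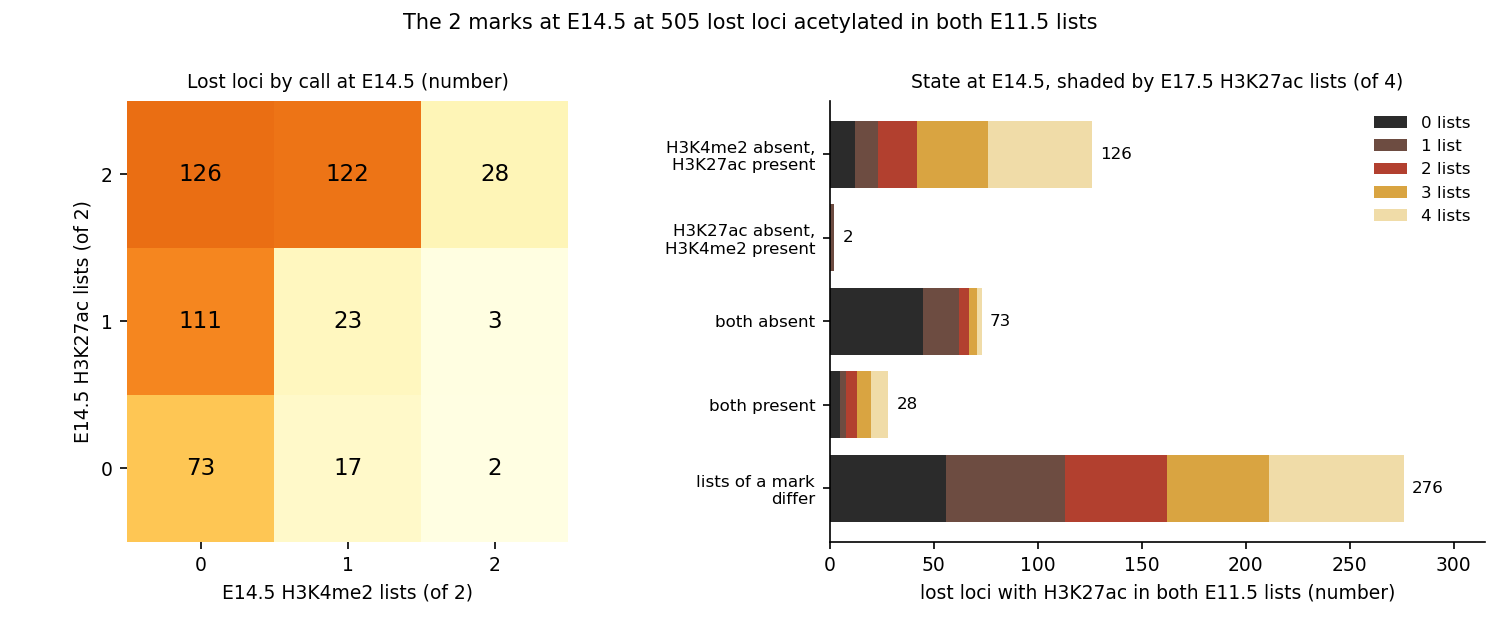
Left, number of the 505 lost loci with H3K27ac in both E11.5 lists by how many E14.5 lists called H3K4me2 and H3K27ac. Right, the same loci by their state at E14.5, with bars shaded by the number of E17.5 H3K27ac lists, showing 126 loci with H3K27ac alone and 2 with H3K4me2 alone at E14.5.

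List length goes with this order and cannot be told apart from it. The E14.5 H3K27ac lists covered 144.5 and 107.1 Mb, against 65.3 and 95.2 Mb of H3K4me2, and the rule required H3K4me2, not H3K27ac, to be gone later. In replicate 1, where the lists of the marks differ most in length, 359 loci had H3K27ac alone at E14.5 and 3 had H3K4me2 alone. In replicate 2, where they differ least, the counts were 144 and 39, while 174 loci had neither mark and 148 had both. With an equal number of the widest regions in all 16 lists of both marks, 73 of 361 loci had H3K27ac alone, 2 had H3K4me2 alone and 146 had neither. Leaving out the H3K4me2 list of E14.5 replicate 2 gave 243 with H3K27ac alone, and leaving out the H3K27ac list of that replicate gave 224. Requiring H3K27ac over at least 50% of the locus gave 65 with H3K27ac alone and 3 with H3K4me2 alone. In each of these counts H3K27ac alone was more frequent than H3K4me2 alone. In replicate 2, and with an equal number of regions, more loci had neither mark than H3K27ac alone.

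The 2 loci where H3K27ac was lost first were chr2:17789226-17790675 and chr5:119465051-119466700. At the chromosome 2 locus H3K4me2 was 700 and 725 bp at E14.5 and 1175 and 1450 bp at E11.5. H3K27ac there was 1450 and 725 bp at E11.5, 0 at E14.5, and at E17.5 200 bp in frontal replicate 2 and 0 in the other lists. The change between E14.5 and E11.5 was -2.63 (log2, limma adjusted p = 0.0246), and the adjusted p was 0.0511 to 0.11 when E11.5 replicate 1, either E14.5 list or either occipital list was left out. At the chromosome 5 locus H3K27ac was 875 and 825 bp at E11.5, 0 at E14.5, and at E17.5 700 bp in frontal replicate 1 and 0 in the other lists, and no comparison of stages passed the test. Both loci thus were overlapped by H3K27ac again in 1 frontal list.

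Where H3K4me2 was lost first, acetylation had varied courses afterwards. At chr9:120502651-120505150, with 1725 and 2500 bp of H3K4me2 at E11.5, H3K27ac was found in all 8 lists, with 2300 and 850 bp at E11.5, 2275 and 425 bp at E14.5, and 50 to 2249 bp at E17.5. At chr15:76262626-76265050 it was 2275 and 850 bp at E11.5, 2225 and 1925 bp at E14.5, and at E17.5 1351 bp in frontal replicate 1 and 0 in the other lists. At chr18:81277476-81280575 it was 1225 and 525 bp at E11.5, 550 bp in both E14.5 lists, and 0 to 2699 bp at E17.5. At each of these 3 the E17.5 and E11.5 values overlapped, and none passed the test between E17.5 and E11.5.

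Of the loci acetylated in all 8 lists, those with most H3K4me2 were chr4:105146876-105149850, chr9:120502651-120505150 and chr4:5731901-5735400. At the first, H3K27ac covered all 2975 bp in the E11.5 and E14.5 lists and 1324 to 2975 bp at E17.5, while H3K4me2 was 2225 bp in E14.5 replicate 2 and 1850 and 2875 bp at E11.5. At the last, H3K27ac was 3500 and 1850 bp at E11.5, 3500 and 2000 bp at E14.5, and 1425 to 3400 bp at E17.5. Neither passed the limma test between E17.5 and E11.5 (adjusted p = 0.183 and 0.849). The 3 with most H3K4me2 among the 377 in no H3K27ac list were chr5:106813301-106816625, chr2:28888001-28891050 and chr14:49707526-49710575, the last with 2375 and 3050 bp of H3K4me2 at E11.5.

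Acetylation was more frequent at lost loci that still had H3K4me2 at E14.5. H3K27ac was in both E11.5 lists at 28.1% of the 1105 loci in no E14.5 H3K4me2 list, 36.4% of the 445 in 1 list and 62.3% of the 53 in both. It was in no E17.5 list at 54.2% of the 1105, 41.4% of the 445 and 32.1% of the 53. The 126 loci that fell in H3K27ac between E17.5 and E11.5 were 79 of the 1105, 35 of the 445 and 12 of the 53. These class sizes include loci that were not tested, and 0.97% of all loci tested fell. Width rose in the same order, and its part in this was not tested.

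Lost loci lay nearly as close to kept ones as kept loci lay to each other. The gap to the nearest kept locus had a median of 20625 bp from a lost locus and 18438 bp from a kept one, and 16.7% of lost and 17.9% of kept loci had a kept neighbour within 5 kb. The nearest other lost locus was within 100 kb for 25.4% of lost loci, 24.7% of partly kept loci and 17.9% of kept loci. On single chromosomes the lost share of E11.5 loci ranged between 3.92% on chromosome 15 and 6.53% on chromosome 9.

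Runs of lost loci with steps of at most 100 kb were mostly single loci (1196), with 157 pairs and 28 runs of 3. The longest run held 5 lost loci, at chr5:106703401-106816625, and was poor in H3K27ac. Over these 5 loci H3K27ac was found in E11.5 replicate 1 at 3, with 550 to 900 bp, in E14.5 replicate 1 at 1, with 525 bp, and in no other list. The widest of the 5, chr5:106813301-106816625, had no H3K27ac in any list. The other run, of 4 loci, was at chr2:28821251-28897375. In it chr2:28821251-28822550 had H3K27ac of 1300 and 875 bp at E11.5, 500 and 0 bp at E14.5, and 500 bp in occipital replicate 2 alone at E17.5. Its neighbour chr2:28829376-28830575 had 325 and 0 bp at E11.5, 600 and 650 bp at E14.5 and 600 bp in frontal replicate 1 alone at E17.5, and the remaining pair had no H3K27ac. Loci of a run share a neighbourhood and are not independent of each other.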

How the data were processed

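The members and the lists compared with them were chosen with earlier results of these data known. Per the file headers and columns, each deposited file holds chromosome, start and end of the regions the authors called for 1 sample, and nothing else. The submitters' processing notes name Bowtie 0.12.9 and the builds mm9 and hg19, and the mouse lists, which reach position 197068850 on chromosome 1, were taken as mm9. The tool that called the regions and its threshold are not given here. Positions are written 1-based. In 2 lists starts were offset by 1 bp, and 6 regions on the mitochondrial genome were left out.

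Covered bp per locus and list were computed with Python 3.11.15, numpy 2.4.6 and pandas 2.3.3. H3K27ac was fitted with limma 3.58.1 in R 4.3.3 (eBayes with a trend) on log2(covered bp + 200), with a mean per tissue over 8 lists and E17.5 as the mean of frontal and occipital cortex, at loci with each mark in at least 2 lists. Adding 200 bp understates changes of short loci, and covered bp cannot exceed the width of the merged locus. The fit was tested on shuffled lists with known changes put in. Since unchanged loci with all-or-none patterns were then called too often, loci in at least 3 H3K27ac lists were tried as an alternative. No depth is known, so no counting interval was computed.

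Loci named in the text follow a rule. They are the 4 longest at E11.5 in each E14.5 class, the 6 largest falls and rises called in H3K27ac, the 3 longest with H3K27ac in all 8 lists or in none and for each order of loss, the 2 runs with most members, and the edge of the rule. Alternatives were another pseudocount, filter, scaling, merging distance, overlap, equal list length, the replicate number as a block, and leaving out each list.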

Additional observations from a re-analysis of the deposited data

Results flagged for a closer look

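In 3 of 16 sets of the 4 E17.5 lists examined, for named loci and the share of lost loci with H3K27ac, 1 list stood far from the others by Dixon's criterion, where chance flags about 1 in 20. All 3 are H3K27ac lengths of loci that rose, and each time it was occipital replicate 2. It had 2075 bp at chr3:141559776-141562275, where the other 3 lists had 2500 bp. It had 2250 bp at chr8:110343501-110345925, where the others had 2425 bp, and 700 bp at chr6:49722501-49723800, where the others had 1275 to 1300 bp. The other lists were at or within 25 bp of the width of the locus, above which no value can go, and occipital replicate 2 was the shortest E17.5 H3K27ac list (129.3 Mb).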

How the results depend on the processing

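Leaving out 1 list at a time, the rule took 1603 to 8711 loci (8711 without E11.5 replicate 1), and 60.69 to 95.33% of them were in no E14.5 list. H3K27ac was in every remaining E11.5 list at 34.81% without replicate 1 and 60.95% without replicate 2, and in every remaining E17.5 list at 12.66 to 17.22%. H3K4me2 was lost first at 131 to 243 loci without 1 E14.5 list. Lost loci that fell in H3K27ac numbered 34 to 142 between E17.5 and E11.5, 3 to 81 between E14.5 and E11.5, and 28 to 41 between E17.5 and E14.5. Calls over all loci ranged between 5357 and 11927 for E14.5 against E11.5 and between 971 and 4257 for E17.5 against E14.5. With an equal number of the widest regions the rule took 2740 loci, 58.39% of them in no E14.5 list, and 4.24% had H3K27ac in every E17.5 list. Lost loci that fell then numbered 218, 129 and 79 in the 3 comparisons, in the order above, and H3K4me2 was lost first at 73. A call that needed 1000 bp gave 752 loci and 65.29%. Requiring H3K27ac over 50% of the locus gave 20.96% at E11.5, 6.11% at E17.5 and 65 loci with H3K4me2 lost first, and H3K27ac within 1000 bp gave 14.04% at E17.5. Counting a mark as present in any list of E14.5 gave 237, and replicate 1 of E14.5 alone 359; both were chosen after seeing the data, as was the equal number over both marks. With at least 3 H3K27ac lists 70 lost loci fell between E17.5 and E11.5 and 5 between E14.5 and E11.5. Scaling to the list total gave 24232 calls between E17.5 and E11.5, 341 of them lost loci that fell, and 0 calls, thus 0 lost loci, between E17.5 and E14.5. With the replicate number as a block limma also gave 0 calls, thus 0 lost loci, between E17.5 and E14.5 (5901 loci at an unadjusted p below 0.05). Deviations of same-numbered lists correlated at -0.191 to 0.072 between tissues, so the numbers do not pair the samples. The causes were not tested. Of the 15 named lost loci called in H3K27ac between E17.5 and E11.5, 4 lost the call without E11.5 replicate 1 and 4 without replicate 2, and in both cases 1 more, chr9:114456376-114459725, was no longer tested; none of the 15 changed sign under an alternative in which it was tested. At 4 named loci that were not called the sign changed with the list left out, with a range of -1.26 to 0.36 at chr9:120502651-120505150, -0.56 to 0.29 at chr4:5731901-5735400, -1.81 to 0.12 at chr18:81277476-81280575 and -0.89 to 0.5 at chr2:28829376-28830575.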

Other observations

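The rule turned round, with loci in all 4 E17.5 lists and neither E11.5 list, took 5752 of 35078 loci (16.4%), against 5.28% of E11.5 loci for the rule as used. Between E14.5 and E11.5, 6.27% of 28521 loci in both E14.5 lists were in neither E11.5 list. On the X and Y chromosomes 54 further loci were in both E11.5 lists and no E17.5 list.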
